A study of Homo sapiens with 6 samples.

Results

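The Wnt ligands, the Frizzled receptors and 2 families of secreted Wnt inhibitors were examined in MCF10A, an established benign human mammary epithelial cell line. Every amplicon whose gene symbol is WNT, FZD, DKK or SFRP followed by digits and at most 1 letter was taken, which gave 37 of the 20802 genes measured: 19 WNT, 10 FZD, 4 DKK and 4 SFRP genes. Expression was read by amplicon sequencing, in which 1 short stretch per gene is amplified from cDNA and its reads are counted. The GIRK1 group is MCF10A stably transfected with a plasmid that carries KCNJ3, the gene of the potassium channel subunit GIRK1, followed by eGFP, the eGFP group carries the plasmid with eGFP alone, and the WT group is the untransfected line. Both transfected lines were selected with G418 and sorted by eGFP fluorescence, which the WT cells were not, and nothing in the labels says that the 2 replicates of a group came from separate transfections. Depth was 11107309 and 10346572 reads for GIRK1 replicates 1 and 2, 5126930 and 10233974 for eGFP, and 2506120 and 16040556 for WT. Values are given as reads and as RPM, the reads scaled to a common library total of 1000000 reads, and at these depths 3 reads correspond to between 0.187 and 1.20 RPM.

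Wnt proteins are secreted, lipid-modified ligands that bind Frizzled receptors together with the co-receptors LRP5 and LRP6. In the canonical branch, binding protects β-catenin from degradation, so that it enters the nucleus and activates genes with TCF and LEF factors, while other branches act on cell polarity and movement. Some Dickkopf (DKK) proteins, DKK1 among them, block the co-receptors, and secreted Frizzled-related proteins (SFRP) hold the ligands outside the cell. In the mammary gland, Wnt signals are known for their part in ductal growth and in the maintenance of basal and stem cells.

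The label check came first. KCNJ3 had 2408 and 3677 reads in the GIRK1 libraries and 0 reads in both eGFP libraries and in WT replicate 2, but 48 reads in WT replicate 1. The library labelled WT replicate 1 also went against its cell line in the markers. The 10 basal markers summed to 65.8 RPM there, with 5 of the 10 at 0 reads, whereas the other 5 libraries held 8774 to 16694 RPM, with only TP63 at 0. The 15 luminal markers, led by TFF1 (5106 RPM), summed to 19952 RPM in WT replicate 1 and to between 596 and 1148 RPM elsewhere, and ESR1, PGR, KRT19 and TFF1 had 0 reads in each of the other 5 libraries. WT replicate 1 was therefore kept out of both main comparisons and is given apart, with 1 alternative fit that includes it, and the 3 control libraries below are eGFP replicates 1 and 2 and WT replicate 2. The deposited tables of the GIRK1 libraries share a name tag that the others do not carry, its meaning is not stated, and it cannot be told apart from the condition. Of the 7 fibroblast markers, DCN was higher in GIRK1 (27.0 and 25.2 RPM) than in eGFP (0.780 and 3.71 RPM) and WT replicate 2 (10.2 RPM), and the list summed to 31.9 and 33.5 RPM in GIRK1 and to 10.7, 8.60 and 13.7 RPM in those controls. Without DCN, the other 6 summed to 4.86 and 8.31 RPM in GIRK1 and to 9.95, 4.89 and 3.43 RPM in the controls, which overlap, and COL1A2 and PDGFRA were at 0 in all 6 libraries. The 4 leukocyte markers were at 0 except CD14, and of the 3 endothelial markers only PECAM1 had reads, at most 0.399 RPM. Their part in the results below was not tested.

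Promoter sequence is shown for 1 gene of each role, a ligand, a receptor and an inhibitor, described below. It comes from RefSeq (GRCh38.p14), whose promoter table holds 25 of the 37 members, and covers bases 250 to 71 before the listed start of the gene, written 5′ to 3′ on the gene's own strand. That start can differ from the end of the gene in the GENCODE annotation used for gene positions below, and the WNT3 stretch lies inside the GENCODE interval of WNT3. The ligand WNT3 is at chr17:46818763-46818942 (minus strand), the receptor FZD1 at chr7:91264183-91264362 (plus strand) and the inhibitor DKK1 at chr10:52314031-52314210 (plus strand). Capitals mark GGGCGG (a GC box) and CTTTGA (the core of a TCF/LEF site), on either strand, so that CCGCCC and TCAAAG are the same motifs read from the other strand.
WNT3: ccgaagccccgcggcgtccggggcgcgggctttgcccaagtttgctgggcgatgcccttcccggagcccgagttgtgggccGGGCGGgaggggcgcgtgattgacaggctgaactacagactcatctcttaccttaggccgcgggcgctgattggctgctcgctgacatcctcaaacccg
FZD1: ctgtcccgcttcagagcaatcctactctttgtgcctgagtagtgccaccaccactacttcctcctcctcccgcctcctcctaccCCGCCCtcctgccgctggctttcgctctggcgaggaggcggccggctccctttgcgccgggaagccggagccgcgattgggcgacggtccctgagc
DKK1: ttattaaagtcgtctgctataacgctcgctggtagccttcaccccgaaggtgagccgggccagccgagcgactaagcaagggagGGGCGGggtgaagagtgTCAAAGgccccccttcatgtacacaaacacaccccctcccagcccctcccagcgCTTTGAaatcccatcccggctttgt
CTTTGA was found 2 times in the DKK1 stretch, a gene known as a target of canonical Wnt signalling, and in none of the other 24 members with a listed promoter, with the first listed start taken for each. In all 35116 promoter stretches of the same length, 8.63% held it. GGGCGG was in 19 of the 25 members and in 31.3% of all stretches. These matches describe the letters only.

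Of the 37 members, 15 had enough reads to be tested and 22 did not. Among the 22, 12 had 0 reads in all 6 libraries: WNT1, WNT2, WNT5B, WNT6, WNT8A, WNT8B, WNT9B, WNT16, DKK3, SFRP2, SFRP4 and SFRP5. A gene without reads on its 1 amplicon was not detectable here, which does not show that it is silent. A further 7 (DKK2, DKK4, FZD9, FZD10, WNT3A, WNT4 and WNT10A) reached at most 4 reads in any library. The remaining 3 were WNT7A, WNT7B and WNT11. The tested members were WNT2B, WNT3, WNT5A, WNT9A, WNT10B, FZD1 to FZD8, DKK1 and SFRP1. Among the members, 4 pairs were close neighbours on a chromosome. WNT10B had 135 reads over the 6 libraries and WNT1, 6.69 kb away on chromosome 12, had 0. WNT3 had 127 and its chromosome 17 neighbour WNT9B had 0. WNT9A had 42 against 9 for WNT3A, 59.2 kb away on chromosome 1, and WNT6 and WNT10A on chromosome 2 had 0 and 1.

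**Figure D1:**
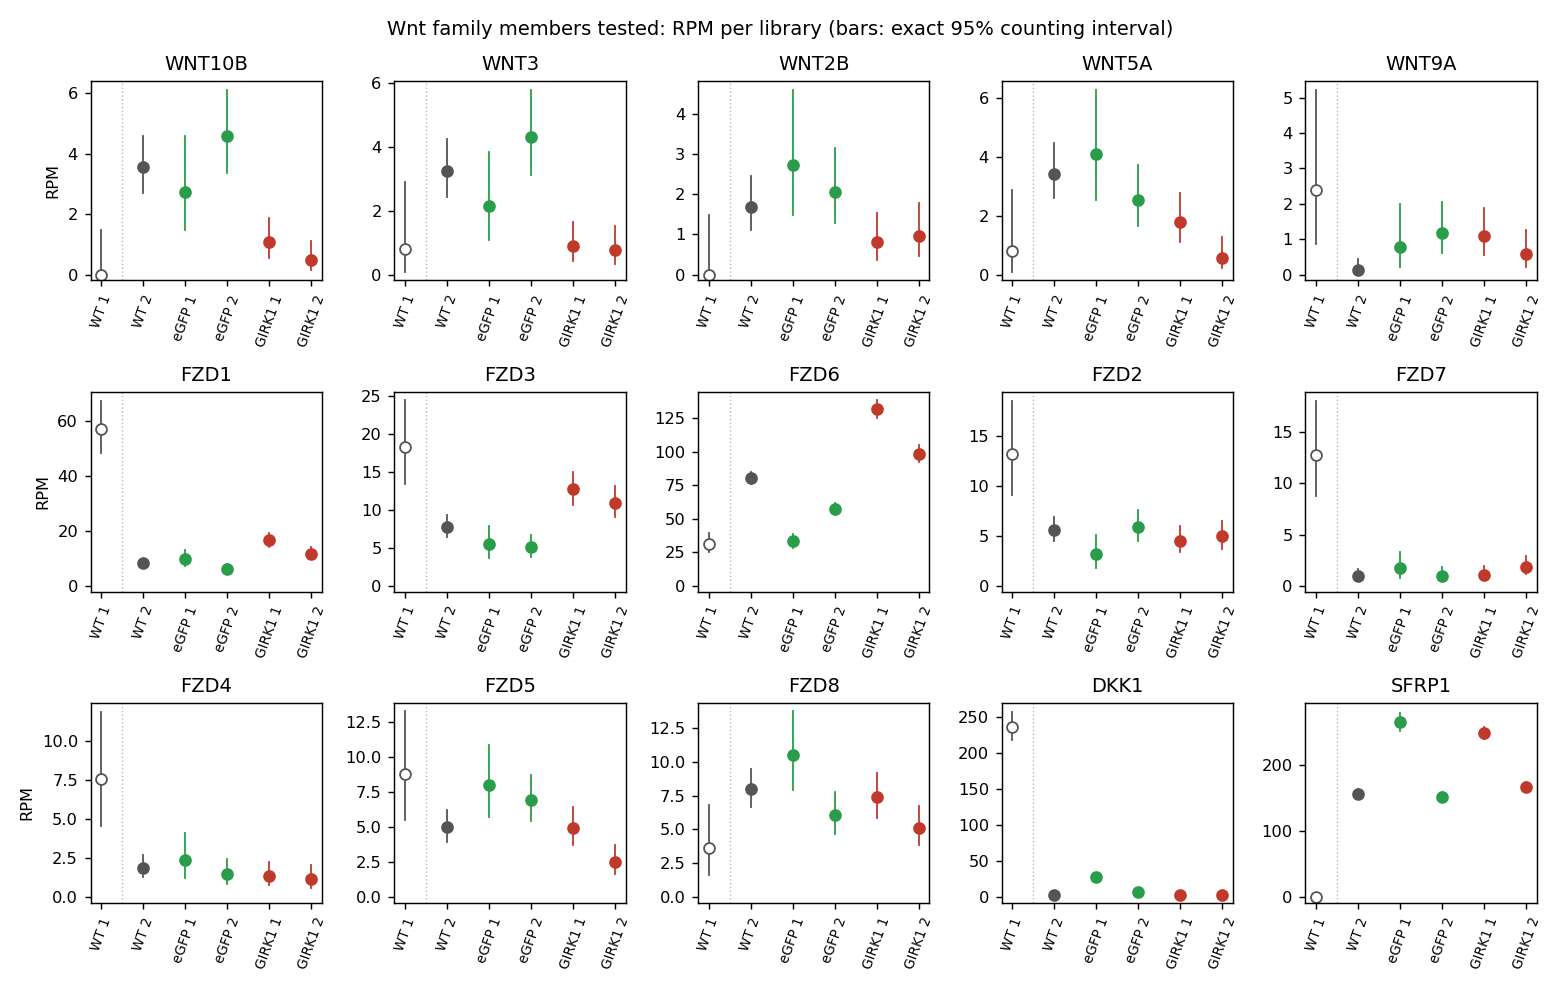
RPM (vertical axis, linear, a scale of its own in each panel) of the 15 tested members in the 6 libraries, with points for values and bars for the exact 95% counting interval; WT replicate 1 is the open point left of the dotted line. In WNT10B, WNT3, WNT2B and WNT5A and in FZD4 and FZD5, both GIRK1 points (red) lie below the 3 control points to the right of the dotted line, and in FZD1, FZD3 and FZD6 they lie above them.

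In the comparison of GIRK1 with eGFP, the question was whether these genes were among those that differ when GIRK1 is overexpressed. With the quasi-likelihood test of edgeR, adjusted over the 11389 genes tested, 0 of the 15 members passed the threshold of 0.05, where 1.55% of all genes did (0.773% higher and 0.773% lower). Without adjustment, 2 members were higher (FZD3 and FZD6) and 4 lower (DKK1, WNT2B, WNT3 and WNT10B) at that threshold, beside 8.24% and 10.9% of all genes, and the DESeq2 test called 2, FZD6 (higher) and DKK1 (lower), where it called 5.92% of all genes. Against the 3 control libraries, 0 of 15 passed again in edgeR, where 1.21% of all genes did (0.799% higher and 0.413% lower). Without adjustment, 3 were higher (8.58% of all genes) and 4 lower (10.2%), and DESeq2 called WNT10B and WNT3, both lower, where it called 7.01% of all genes. These comparisons share the GIRK1 and eGFP libraries. The median log2 fold change of the tested members was -0.44 against eGFP and -0.40 against the 3 controls, and that of all genes tested was 0.01 and -0.01. Both GIRK1 libraries lay above all 3 controls for 3 tested members and below for 6, which is the case for 21.6% and 19.5% of all genes tested. Set against the eGFP libraries alone, they lay above for 3 and below for 7, where 29.0% and 25.1% of all genes did. WNT2B, WNT3, WNT5A and WNT10B, 4 of these 6, passed the filter on low counts only through the control libraries, so the filter favoured lower values in GIRK1 for them. None of the counts of lower members or calls given here for these 4 genes, nor the median, supports a difference. Leaving out eGFP replicate 1 gave 3 calls of 15 in either comparison (FZD6 higher, WNT10B and WNT3 lower), beside 5.70% of all genes against eGFP and 8.73% against the 3 controls. Leaving out eGFP replicate 2 gave 2 of 14 against eGFP (FZD6 higher, DKK1 lower), beside 25.1% of all genes, so that this share is no result about the members. In the fits against eGFP that left out an eGFP library, the spread between replicates came from the 2 GIRK1 libraries alone. The lone eGFP and WT libraries were assumed to vary like them, and calls from those fits rest on this assumption.

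Among the ligands, the lower values in GIRK1 rested on 4 genes with few reads. In these bulk samples, fewer cells with a transcript and less of it per cell cannot be told apart. WNT10B, a canonical ligand that promotes mammary growth and blocks fat cell formation (chromosome 12, 48965340 to 48971763, GRCh38, GENCODE annotation), had 12 and 5 reads in GIRK1, 14 and 47 in eGFP and 57 in WT replicate 2. In RPM these were 1.08 and 0.483 against 2.73, 4.59 and 3.55, so the groups did not overlap. The 95% counting interval of GIRK1 replicate 1 (0.558 to 1.89 RPM) met that of eGFP replicate 1 (1.49 to 4.58 RPM). The log2 fold change was -2.26 ± 0.58 (SE) against eGFP (adjusted p = 0.117, edgeR) and -2.22 ± 0.50 against the 3 controls (adjusted p = 0.0932, edgeR). Without GIRK1 replicate 1 the values were -2.92 and -2.88.

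WNT3, a canonical ligand needed for axis formation in the embryo (chromosome 17, 46762506 to 46833154), had 0.900 and 0.773 RPM in GIRK1, from 10 and 8 reads. The controls had 2.15 and 4.30 RPM (eGFP) and 3.24 RPM (WT replicate 2), all above GIRK1. The counting interval of GIRK1 replicate 1 (0.432 to 1.66 RPM) met that of eGFP replicate 1 (1.07 to 3.84 RPM). The log2 fold change of WNT3 was -2.00 ± 0.55 against eGFP (adjusted p = 0.132, edgeR) and -1.97 ± 0.47 against the 3 controls (adjusted p = 0.105, edgeR). For WNT2B (chromosome 1, 112466541 to 112530165), another canonical ligand, GIRK1 had 0.810 and 0.967 RPM, eGFP had 2.73 and 2.05 and WT replicate 2 had 1.68. WNT5A, the best known ligand of the non-canonical branch (chromosome 3, 55465715 to 55490539), had 1.80 and 0.580 RPM in GIRK1, 4.10 and 2.54 in eGFP and 3.43 in WT replicate 2. Neither gene overlapped in RPM between GIRK1 and the controls, but counting intervals met for both. For WNT2B, that of GIRK1 replicate 2 (0.463 to 1.78 RPM) met that of WT replicate 2 (1.11 to 2.45 RPM). For WNT5A, that of GIRK1 replicate 1 (1.10 to 2.78 RPM) met that of eGFP replicate 2 (1.66 to 3.72 RPM). The log2 fold changes of WNT2B and WNT5A against eGFP were -1.44 ± 0.54 and -1.48 ± 0.65 (adjusted p = 0.226 and 0.278, edgeR). For WNT5A the value was -2.50 without GIRK1 replicate 1 and -0.92 without GIRK1 replicate 2. WNT9A (chromosome 1, 227918656 to 227947898), a ligand of joint development, overlapped: it had 1.08 and 0.580 RPM in GIRK1, 0.780 and 1.17 in eGFP and 0.125 in WT replicate 2, and its log2 fold change was -0.30 against eGFP and 0.37 against the 3 controls.

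WNT7A was a matter of a single library. It had 39 reads (7.61 RPM) in eGFP replicate 1, 6 in eGFP replicate 2, 11 in WT replicate 2 and 7 in each GIRK1 library, so the other 4 libraries lay between 0.586 and 0.686 RPM. Summed over all 19 WNT amplicons, the libraries held 7.02 and 4.54 RPM (78 and 47 reads) in GIRK1, 20.3 and 15.4 RPM in eGFP and 13.3 RPM in WT replicate 2. GIRK1 was the lowest of the 5. The sum holds WNT10B, WNT3, WNT2B and WNT5A, so it is no result apart from theirs, and WNT7A adds 7.61 RPM to that of eGFP replicate 1. Efficiency differs between amplicons, so such a sum weights the ligands unequally.

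**Figure D2:**
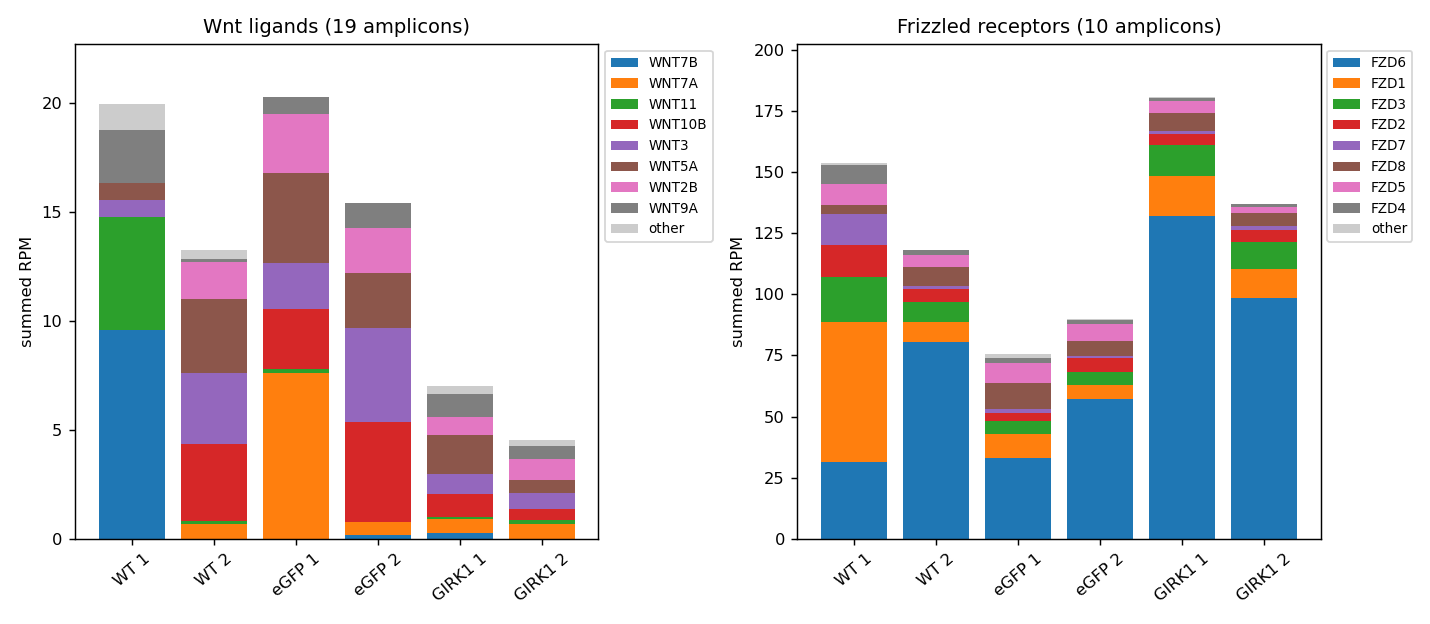
Summed RPM (vertical axis) of the Wnt ligands (left) and Frizzled receptors (right) in each library, stacked by gene. The ligand sum is lowest in the GIRK1 libraries (7.02 and 4.54 RPM), and WNT7A adds 7.61 RPM to that of eGFP replicate 1. FZD6 is the largest single part of the receptor sum in the 5 libraries other than WT replicate 1.

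Among the receptors, 3 were higher in both GIRK1 libraries than in every control. They were the only such members of the 15 tested, a count near the 21.6% of all genes tested. FZD6, a Frizzled that acts in planar cell polarity (chromosome 8, 103298433 to 103332866), had the most reads of the receptors and so the smallest relative counting error: 1465 and 1020 reads in GIRK1, 170 and 583 in eGFP and 1292 in WT replicate 2. In RPM, GIRK1 had 132 and 98.6, eGFP had 33.2 and 57.0, and WT replicate 2 had 80.5. The mean was 45.1 ± 16.8 RPM in eGFP and 115 ± 23.6 in GIRK1 (SD, n = 2), but the log2 fold change of 1.32 ± 0.29 did not pass (adjusted p = 0.0876, edgeR), nor did the 1.0 ± 0.32 against the 3 controls (adjusted p = 0.176, edgeR). WT replicate 2 was closer to GIRK1 replicate 2 than to either eGFP library.

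FZD3 (chromosome 8, 28494205 to 28574268), which guides axons and acts in cell polarity, had 12.7 and 10.9 RPM in GIRK1, 5.46 and 5.08 in eGFP and 7.79 in WT replicate 2. Its replicates were close in both lines, with 11.8 ± 1.25 RPM in GIRK1 and 5.27 ± 0.269 in eGFP (SD, n = 2). The counting interval of GIRK1 replicate 2 met that of WT replicate 2 (6.49 to 9.28 RPM). The log2 fold change of FZD3 against eGFP was 1.13 ± 0.31 (adjusted p = 0.138, edgeR). FZD1 (chromosome 7, 91264364 to 91271326), a receptor of the canonical branch, had 16.5 and 11.7 RPM in GIRK1, 9.75 and 6.06 in eGFP and 8.29 in WT replicate 2. Its counting interval in GIRK1 replicate 2 met those of eGFP replicate 1 (7.24 to 12.9 RPM) and WT replicate 2 (6.94 to 9.83 RPM). The log2 fold change of FZD1 against eGFP was 0.81 ± 0.37 (adjusted p = 0.302, edgeR). It was 1.23 without eGFP replicate 1 and 0.43 without eGFP replicate 2.

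The remaining receptors went the other way or overlapped. FZD5 (chromosome 2, 207762586 to 207769563), a receptor known from intestinal Paneth cells, had 4.95 and 2.51 RPM in GIRK1, 8.00 and 6.94 in eGFP and 4.99 in WT replicate 2, so that GIRK1 replicate 1 and WT replicate 2 were almost level. Its log2 fold change against eGFP was -1.04 ± 0.44 (adjusted p = 0.268, edgeR), with -1.59 without GIRK1 replicate 1 and -0.64 without GIRK1 replicate 2. FZD4 (chromosome 11, 86945679 to 86955391), the receptor of norrin in retinal vessels, had 1.35 and 1.16 RPM in GIRK1, below the 1.47 to 2.34 RPM of the controls, from 12 to 30 reads per library, and its log2 fold change against eGFP was -0.59 ± 0.56, or -0.21 without eGFP replicate 1 and -0.99 without eGFP replicate 2. FZD2 (chromosome 17, 44557459 to 44559570), FZD7 (chromosome 2, 202034587 to 202038445) and FZD8 (chromosome 10, 35638249 to 35642278) overlapped between GIRK1 and the controls, with log2 fold changes against eGFP of 0.01 ± 0.42, 0.11 ± 0.63 and -0.44 ± 0.42. Within 1 receptor family the tested members thus ranged from -1.04 (FZD5) to 1.32 (FZD6).

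The inhibitors came down to a pair of genes. DKK1, which binds LRP5 and LRP6 (chromosome 10, 52314296 to 52318042), had 33 and 31 reads in GIRK1 (2.97 and 3.00 RPM), 140 and 65 in eGFP (27.3 and 6.35 RPM) and 42 in WT replicate 2 (2.62 RPM). GIRK1 was below both eGFP libraries and above WT replicate 2, and the eGFP replicates differed from each other more than eGFP replicate 2 did from GIRK1. The log2 fold change of -2.53 ± 0.71 against eGFP did not pass (adjusted p = 0.140, edgeR). It was -1.07 without eGFP replicate 1 and -3.29 without eGFP replicate 2. Against the 3 controls it was -2.01 ± 0.98 (adjusted p = 0.325, edgeR), and -0.54 without eGFP replicate 1. SFRP1, which binds Wnt ligands through a Frizzled-like domain and is often silenced in breast tumours (chromosome 8, 41261958 to 41309497), had 248 and 167 RPM in GIRK1, 265 and 151 in eGFP and 157 in WT replicate 2. These values overlapped, and the log2 fold change was -0.06 ± 0.35 against eGFP and 0.08 ± 0.33 against the 3 controls. With 1358 to 2759 reads per library, counting error is small for SFRP1 and the spread between replicates sets its precision.

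**Figure D3:**
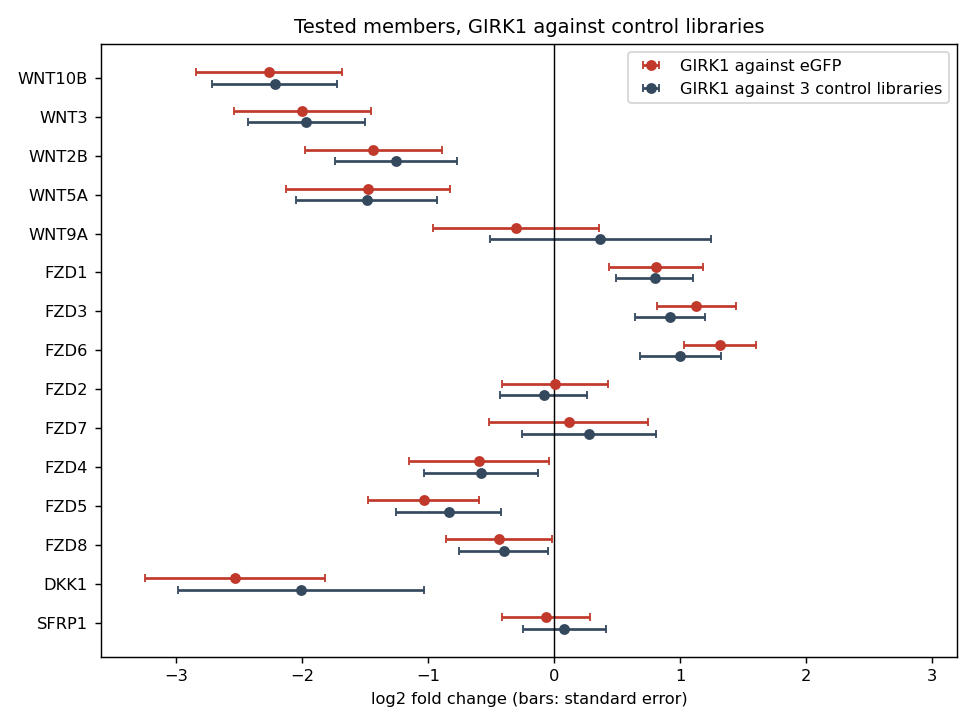
Log2 fold change (horizontal axis, bars for the standard error) of the 15 tested members, GIRK1 against eGFP (red) and against the 3 control libraries (dark). The 4 ligands at the top lie between -2.26 and -1.25, FZD1, FZD3 and FZD6 between 0.80 and 1.32, and SFRP1 close to 0, and in these edgeR fits no member passed the adjusted threshold.

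The study's methods use another rule, a 2-fold difference with replicates whose coefficient of variation stays under 0.7. Applied to mean RPM, it picked 6 members between GIRK1 and eGFP. A gene with 0 reads in both libraries of a group has no coefficient of variation and could not be picked. This held for KCNJ3 and WNT3A, and it lowers the shares of all genes too. FZD3 and FZD6 were higher and WNT2B, WNT3, WNT10B and FZD5 lower, beside 4.72% and 5.37% of all genes tested. The rule itself used no filter on low counts and picked the same 6 from all 37 members. The shares are over genes that passed the filter, whose effect on WNT2B, WNT3 and WNT10B bears on that comparison. DKK1 failed this rule on the spread of its eGFP replicates (16.8 ± 14.8 RPM, SD, n = 2).

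Other genes of the pathway were read from a list of 77 genes, of which 76 were on the panel and 54 were tested. In edgeR, after adjustment, 0 of 54 passed in either comparison, where 1.55% and 1.21% of all genes did. Without adjustment there were 9 and 7, beside 19.1% and 18.7% of all genes, and DESeq2 called 0 and 3, beside 5.92% and 7.01%. The median log2 fold change was 0.01 against eGFP and -0.02 against the 3 controls. The tested genes of ligand release, PORCN, which attaches the lipid, and WLS, which carries ligands to the surface, had log2 fold changes of -0.19 and 0.01 against eGFP, and the 5 tested co-receptors and alternative receptors (LRP5, LRP6, ROR1, RYK and PTK7) ranged from -0.24 to 0.33. On the nuclear side, LEF1, a partner of β-catenin, had 23.9 and 16.8 RPM in GIRK1, 9.56 and 10.2 in eGFP and 7.79 in WT replicate 2, a log2 fold change of 1.0 ± 0.29 (adjusted p = 0.146, edgeR). TLE4, a co-repressor of TCF factors, had 37.6 and 35.3 RPM in GIRK1 against 13.1, 21.1 and 15.8 RPM in the same order of controls (log2 fold change 1.05 ± 0.27, adjusted p = 0.121, edgeR). Both genes lay above every control in both GIRK1 libraries, as did 12 of the 54 tested pathway genes in all, and 8 lay below. Of all genes tested, 21.6% lay above and 19.5% below, so these counts are near those shares.

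Besides LEF1 and TLE4, the higher genes with the smallest p-values were SERPINF1 (log2 fold change 2.76, 0.195 to 0.686 RPM in the controls and 1.89 and 1.93 in GIRK1), the polarity cadherin CELSR2 (0.91) and the surface proteoglycan GPC4 (0.76). SERPINF1 had 2 reads in each eGFP library and passed the filter on low counts only through the GIRK1 libraries. The filter thus favoured higher values in GIRK1 for it. Its fold change and its place in the counts without adjustment support no difference. Among the lower genes, those with the smallest p-values were CD44 (-1.62), CTNNBIP1, which keeps β-catenin from TCF factors (-0.65), MYC (-0.62), CTNNB1, the β-catenin gene (-0.59), and DVL1, which passes the signal on from Frizzled (-0.43). CTNNB1 had 272 and 302 RPM in GIRK1, 462 and 376 in eGFP and 353 in WT replicate 2, and MYC had 376 and 433 RPM in GIRK1, 648 and 554 in eGFP and 632 in WT replicate 2. Neither passed (adjusted p = 0.238 and 0.217, edgeR). Of the 17 genes listed as common targets, 10 were tested, MYC, CD44 and LEF1 among them, with a median log2 fold change of 0.07 against eGFP. Among the 7 that were not, AXIN2 had 0 or 1 reads in each library except WT replicate 1 (12 reads), and LGR5 and TCF7 had 0 reads in all 6 libraries.

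**Figure D4:**
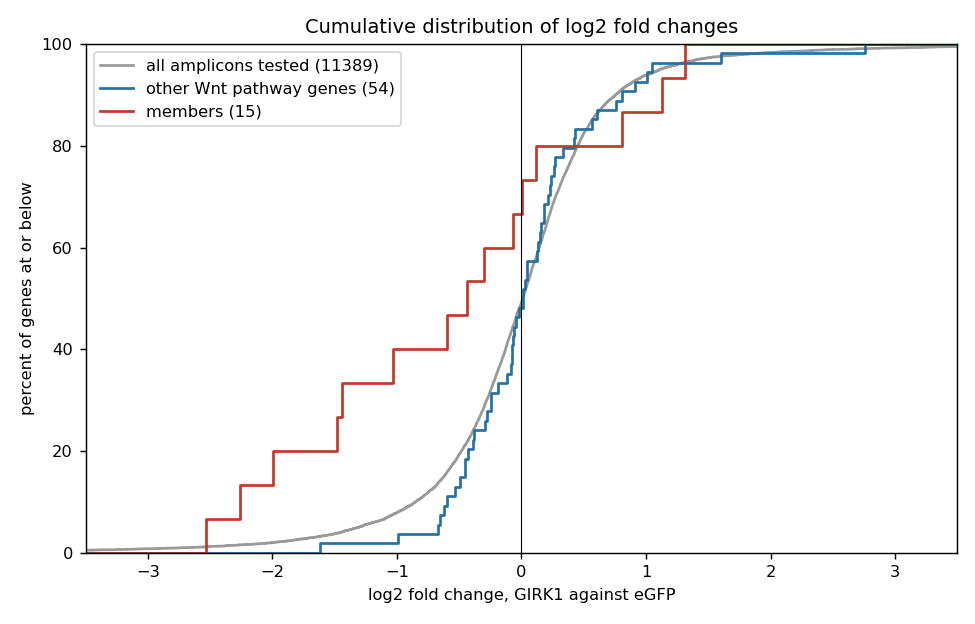
Cumulative percent of genes (vertical axis) at or below each log2 fold change of GIRK1 against eGFP (horizontal axis, without the far tails) for all 11389 genes tested (grey), the 54 other Wnt pathway genes (blue) and the 15 tested members (red). The pathway genes follow the grey curve around a median of 0.01, and the members, with a median of -0.44, spread from -2.53 to 1.32.

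By RPM, the library labelled WT replicate 1 lay above all other 5 for 8 of the 15 tested members and below all 5 for 5, where 37.0% and 34.9% of all genes tested did. Its counting interval lay above those of the 3 controls for 8 of all 37 members, a count not far from the 16.4% of all 20802 genes. SFRP1 had 0 reads there, where 3 reads would be 1.20 RPM and the exact 95% interval reaches 1.47 RPM, while DKK1 had 592 reads (236 RPM). WNT10B and WNT2B also had 0 reads in this library, and the same interval met those of both GIRK1 libraries. WNT3 and WNT5A had 2 reads each and WNT4 had 3. WNT9A had 6 (2.39 RPM), above the other libraries, but its interval (0.879 to 5.21 RPM) met that of eGFP replicate 2 (0.606 to 2.05 RPM). FZD8 was below the other libraries, but its interval (1.64 to 6.82 RPM) met that of eGFP replicate 2 (4.64 to 7.77 RPM). WNT7B (24 reads) and WNT11 (13 reads) had at most 3 reads in any other library. FZD1 had 57.1 RPM there and FZD3 had 18.4, above all other libraries, while FZD6 had 31.5 RPM, below them but with a counting interval that met that of eGFP replicate 1. In the fit over all 6 libraries, which includes it, 0 members and 0 of all genes passed against eGFP (edgeR). Without adjustment 0 members were below 0.05, beside 5.25% of all genes, which says nothing about the members.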

How the data were processed

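All 6 amplicon libraries were grouped by GEO's labels. With the Ion Torrent workflow, the authors assigned reads to a reference of AmpliSeq amplicons and deposited raw read counts. The deposited RPM values are these counts scaled to a library total of 1000000 reads. Spike-in amplicons had 0 reads and were left out. The members and lists were chosen with earlier results of these data known.

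The test was edgeR 4.0.16 in R 4.3.3 (limma 3.58.1), with TMM, filterByExpr with the smaller arm of 2 libraries, glmQLFit, glmQLFTest and Benjamini-Hochberg adjustment at 0.05 over 11389 genes. GIRK1 was compared with eGFP in a fit of 5 libraries in 3 groups, and with the 3 control libraries as 1 group. Standard errors came from the F value. P-values measure the spread between these libraries, which may be technical. Intervals are exact (Clopper-Pearson) and, like the floor of 3 reads, cover counting error only. The script was tested on simulated counts. Every tested member was named, untested ones from 10 reads, and pathway genes that passed or were among the 5 smallest p-values each way. Further untested members, the secretion and co-receptor genes, AXIN2, LGR5 and TCF7 were named after their values were seen. Alternatives were other normalizations, filters and libraries, DESeq2 1.42.0, a replicate block, a threshold of 0.01 and the study's rule. Gene positions are from GENCODE release 29 (GRCh38), matched by symbol, because amplicon positions carry no genome build.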

Additional observations from a re-analysis of the deposited data

Results flagged for a closer look

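The library labelled WT replicate 1, which neither comparison of the report used, held 8 of the 37 members above the level of all 3 control libraries, with counting intervals that did not meet, beside 16.4% of all genes. This count is not far from that share, so it is no result about the members as a group. The 8 members were DKK1 (236 RPM), FZD1 (57.1 RPM), FZD3 (18.4 RPM), FZD2 (13.2 RPM), FZD7 (12.8 RPM), WNT7B (9.58 RPM), FZD4 (7.58 RPM) and WNT11 (5.19 RPM). This library had the smallest depth (2506120 reads) and the markers described above, and their part in these values was not tested.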

How the results depend on the processing

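Of 361 alternative values for the 15 tested members, 323 kept their direction and side of the threshold, 16 kept the direction and passed it, and 22 changed sign. These counts hold repeats, since the fit of 4 libraries and both fits without WT replicate 2 are the same fit. Without a filter on low counts, 3 of 25 members were called against eGFP (DKK1, FZD6, WNT10B), in a fit of 15206 genes rather than 11389. Of the 15 tested members, the count called against eGFP was 2 by DESeq2, 1 with the replicate block (FZD6) and 6 by the study's rule. Against the 3 controls it was 2 by DESeq2. The matching counts over all genes stand at the end of this section, and the shares for the study's rule stand above. For the pathway list, 1 of 62 genes was called without a filter (TLE4) in either comparison. Against the controls the counts were also 3 by DESeq2 (LEF1, MYC, TLE4) and 1 with the block (TLE4). Between GIRK1 and eGFP, the study's rule picked 3 pathway genes as higher and 1 as lower, beside 4.72% and 5.37% of all genes tested. Leaving out 1 library gave 0 to 3 members in either comparison, and 0 to 9 pathway genes against eGFP (9 without eGFP replicate 2, 1 without eGFP replicate 1) and 0 to 3 against the controls. The other normalizations, the stricter filter, all 6 libraries and the 0.01 threshold gave 0 throughout. The stricter filter kept only 9 of the 15 tested members. It dropped WNT2B, WNT3, WNT5A, WNT9A, WNT10B and FZD7, so its 0 does not bear on these genes. Against the controls, all 6 libraries turned FZD1 to -0.40, FZD7 to -1.27 and WNT9A to -0.19, and the block turned FZD2 to 0.040 and SFRP1 to -0.0055. Over the fits that left out 1 library, log2 fold changes ran from -0.30 to 0.49 (FZD2), -0.37 to 0.58 (FZD7), -0.85 to 0.061 (FZD8), -0.46 to 0.47 (SFRP1) and -0.79 to 0.065 (WNT9A) against eGFP, and from -0.27 to 0.050 (FZD2), -0.18 to 0.61 (FZD7), -0.21 to 0.44 (SFRP1) and -0.30 to 0.69 (WNT9A) against the controls. The cause of these changes was not tested. Same-numbered replicates are not said to share a day, and the replicate differences of eGFP and GIRK1 correlated at 0.196 across 9212 genes, which with 2 numbers does not show a pairing, so the numbers were not taken as pairs. The values with WT (0.110 and 0.027) rest on WT replicate 1 and do not bear on it. Depth limits the members with few reads, such as WNT10B with 5 to 57 in the libraries compared. Over all genes, against eGFP, the calls (88 higher and 88 lower) became 313 and 552 without a filter, 57 and 50 with the stricter filter, 227 and 447 by DESeq2, 185 and 329 with the block, 0 with all 6 libraries (606 at an unadjusted p under 0.05, edgeR), 273 and 370 without eGFP replicate 1 and 1320 and 1517 without eGFP replicate 2. Against the controls (91 and 47) they became 182 and 192 without a filter, 336 and 462 by DESeq2, 232 and 326 with the block, 7 and 0 with all 6 libraries, 485 and 499 without eGFP replicate 1, 28 and 3 without eGFP replicate 2, 30 and 3 without GIRK1 replicate 1 and 17 and 2 without GIRK1 replicate 2.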
